A study of Homo sapiens with 6 samples.

Results

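The genes described here are 9 nuclear genes of the cytoskeleton and its scaffolds, KRT8, KRT18, KRT19, AHNAK, AKAP12, FN1, TMSB10, ACTB and ACTG1, of 57500 genes listed in each count table. They were chosen by symbol, with earlier results of these libraries at 10 µM GenX against control in view, so their low counts at 10 µM are described and not tested. The study exposed HepG2, a human liver carcinoma line of epithelial type, to GenX, a short-chain perfluoroalkyl ether acid, and sequenced RNA from mitochondria isolated afterwards. The groups were wild-type HepG2 given the vehicle DMSO (0 µM), 10 µM GenX or 100 µM GenX, all for 48 h, all in 1 labelled batch, with 2 libraries each and 6 in all. The RNA was depleted of ribosomal RNA and made into stranded libraries. HepG2 is 1 tumour-derived line, and the sources used here do not say whether the libraries of a dose came from separate cultures, so p-values measure only the spread between these libraries.

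Keratins are intermediate filament proteins that assemble as partners of a type II and a type I chain. KRT8 (type II) and KRT18 (type I) are the partners of the hepatocyte, while KRT19 (type I) is typical of bile duct epithelium and of many carcinoma lines. ACTB and ACTG1 encode the beta and gamma cytoplasmic actins, TMSB10 encodes a small peptide that binds actin monomers, AHNAK is a giant scaffold protein beneath the plasma membrane, AKAP12 anchors protein kinase A and protein kinase C, and FN1 encodes fibronectin, a matrix glycoprotein that hepatocytes secrete. None of these proteins is encoded by mitochondrial DNA, and their mRNAs are translated outside the mitochondrion.

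On GRCh38, the build named in the submitters' processing notes, KRT8 (ENSG00000170421, chr12:52897187-52949954, minus strand) and KRT18 (ENSG00000111057, chr12:52948871-52952901, plus strand) are neighbours whose exons share 525 bases on opposite strands. KRT19 (ENSG00000171345) lies at chr17:41523617-41528308 and ACTG1 (ENSG00000184009) at chr17:81509971-81523847, both on the minus strand. AHNAK (ENSG00000124942) lies at chr11:62433542-62556235 and ACTB (ENSG00000075624) at chr7:5527151-5563784, both on the minus strand. AKAP12 (ENSG00000131016) lies at chr6:151239999-151358557 on the plus strand. FN1 (ENSG00000115414) lies at chr2:215360440-215436172 on the minus strand and TMSB10 (ENSG00000034510) at chr2:84905625-84906675 on the plus strand. The exons of TMSB10 share 13 bases with TRABD2A on the opposite strand. No source used here gives the strand setting of the counting, so reads in the shared bases may have been counted for either gene or for none.

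Several of the 9 genes have close copies in the genome, which bears on how their reads could be counted. The coding sequences of ACTB and ACTG1 were 91.3% identical over 1125 bases. Their first 90 coding bases are shown because the ratio of the 2 actins is one of the differences described below. They were read from the GRCh38 transcripts of GENCODE, at chr7:5529568-5529657 for ACTB and chr17:81512265-81512354 for ACTG1, both on the minus strand, and capitals mark the 17 bases that differ:
ACTB: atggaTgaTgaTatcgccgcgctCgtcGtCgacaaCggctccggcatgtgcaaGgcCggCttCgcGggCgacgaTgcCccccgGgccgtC
ACTG1: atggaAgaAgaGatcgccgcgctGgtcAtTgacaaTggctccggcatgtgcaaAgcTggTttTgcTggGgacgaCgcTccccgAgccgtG
KRT18 and its processed copy KRT18P61 were 89.8% identical over 1289 aligned bases. Of all stretches of 50 bases in the longest-coding KRT8 transcript, 41.3% also occurred in transcripts of other genes, against 31.8% for KRT18, 10.3% for ACTB, 4.03% for ACTG1, 2.24% for TMSB10 and 1.79% for KRT19. AHNAK, AKAP12 and FN1 had 0%. With stretches of 100 bases the share was 7.56% for KRT8, 0.165% for ACTB and 0% for the other 7 genes. No source used here gives the read length or says how reads with several matches were treated, so the KRT8, KRT18 and actin counts are the least certain of the 9.

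Library totals ran from 29350 to 2141282 counts on genes, a 73.0-fold range, and were lowest at 10 µM. The share of counts on mtDNA genes was 4.35% and 10.4% at 0 µM, 43.7% and 61.1% at 10 µM, and 3.58% and 3.32% at 100 µM. Levels below are therefore given as nuclear CPM, the CPM computed over counts on nuclear genes alone. Genes without a count in either control held 45.6% and 38.5% of nuclear counts at 10 µM, and 9.53% and 9.24% at 100 µM. The nuclear-retained RNAs MALAT1 and NEAT1 took 14.5% and 6.08% of nuclear counts at 0 µM, 0.0857% and 0.140% of them at 10 µM, and 3.47% and 3.18% of them at 100 µM. A level of 3 counts, the floor used for a gene without a count, equals 13.0 and 55.0 nuclear CPM at 0 µM, 122 and 263 at 10 µM, and 1.45 and 2.32 at 100 µM. Intervals and floors cover counting error only. Of 12 hepatocyte and HepG2 markers, 9 and 8 had a count at 0 µM, 8 and 3 at 10 µM, and all 12 in both libraries at 100 µM, and they summed to 0.956% and 1.85%, 0.0898% and 0.0614%, and 1.52% and 1.52% of nuclear counts. AFP, TTR and FGB had no count in either control. The 10 fibroblast and stromal markers summed to 0.0226% and 0.0165% at 0 µM, 0.0408% and 0.0789% at 10 µM, and 0.00717% and 0.0141% at 100 µM. In the second 10 µM library they thus exceeded the hepatocyte and HepG2 markers, on 6 counts of COL1A1 and 3 of COL1A2. The 7 blood cell markers summed to at most 0.0351% and the 4 endothelial markers to at most 0.00734% of nuclear counts in any library. The part of these differences in the levels of the 9 genes was not tested. The RNA came from isolated mitochondria, so these levels are not those of whole cells. Fewer cells of a type, less RNA per cell and less RNA from outside mitochondria in the isolate cannot be told apart here.

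Together the 9 genes took 2.28% (exact 95% binomial interval 2.22 to 2.34) and 2.45% (2.32 to 2.58) of nuclear counts at 0 µM, 0.0531% (0.0283 to 0.0907) and 0.307% (0.214 to 0.427) at 10 µM, and 1.96% (1.94 to 1.98) and 1.91% (1.88 to 1.93) at 100 µM. The group means were 2.37% ± 0.119, 0.180% ± 0.179 and 1.93% ± 0.0349 (SD, n = 2 each). The share was low in both 10 µM libraries, and the 3 doses did not overlap. In counts, 13 and 35 fell on the 9 genes at 10 µM. The nuclear shares of the control libraries would have given 559 and 601 in the first 10 µM library and 260 and 280 in the second. The counts seen were below each of these. Of the 9 genes, 7 and 8 had at least 1 count at 10 µM, and all 9 had counts in the other 4 libraries.

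**Figure D1:**
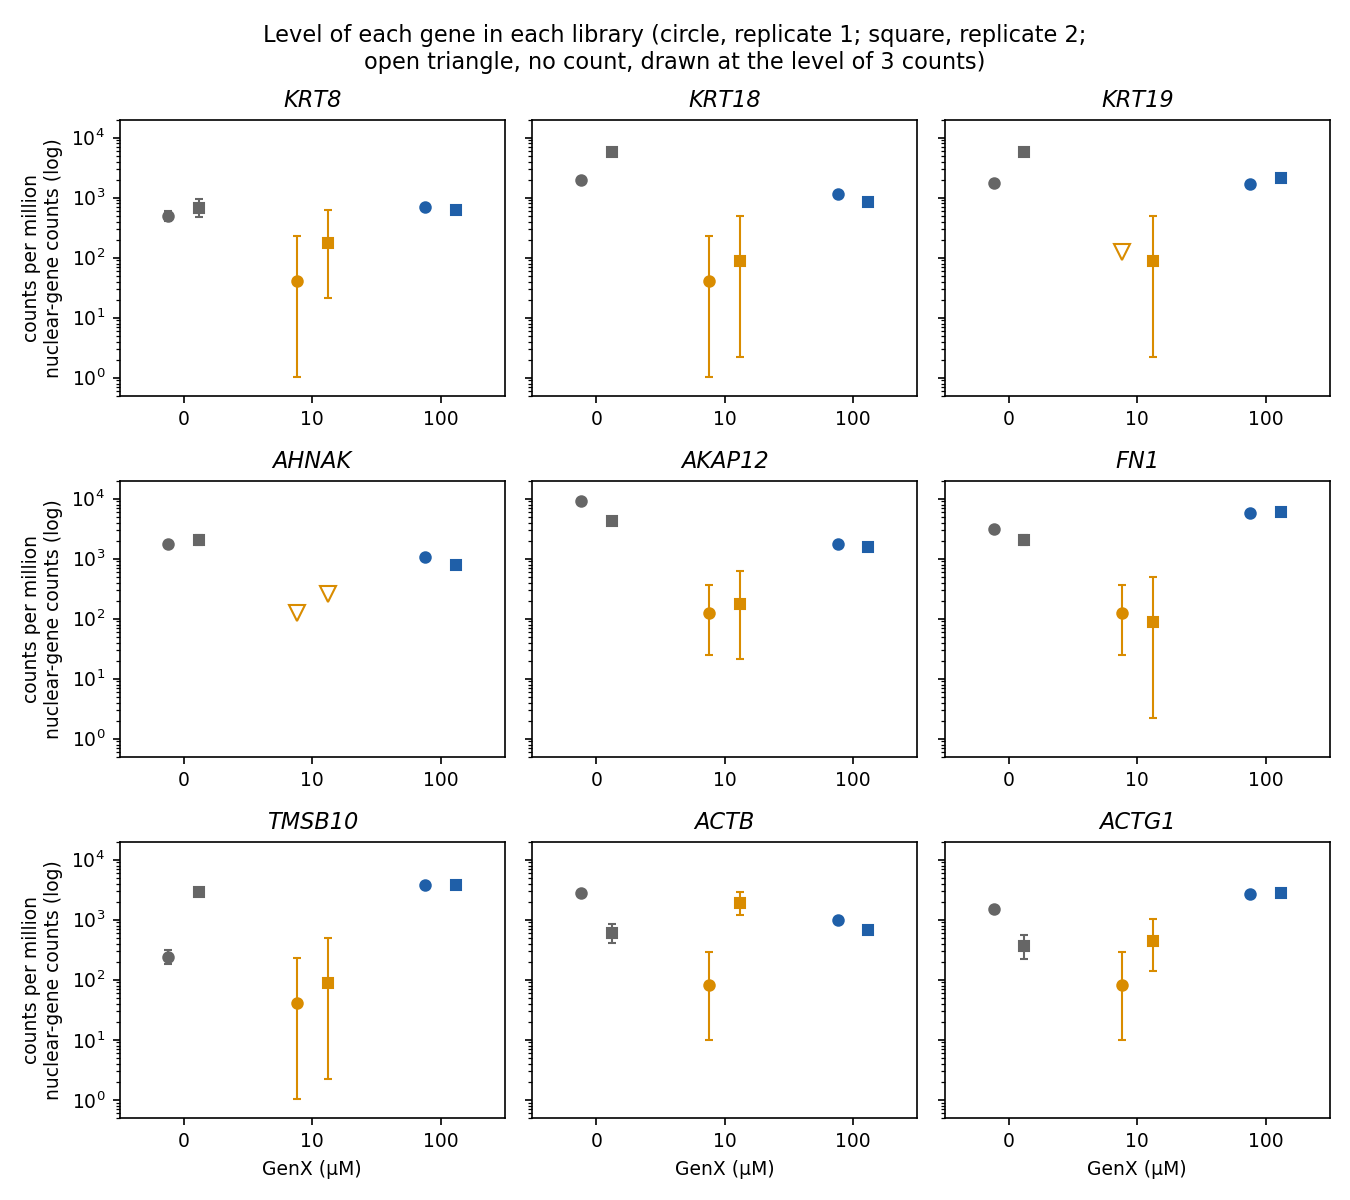
Level of each of the 9 genes in each library, in nuclear CPM (CPM over nuclear-gene counts) on a log axis, by GenX dose in µM. Circles are replicate 1 and squares replicate 2, bars are exact 95% counting intervals, and an open triangle marks a library without a count, drawn at the level of 3 counts. Both 10 µM libraries lie below both controls for 7 genes; ACTB and ACTG1 overlap them.

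All 3 keratins were lower in both 10 µM libraries than in the other 4. KRT8, the type II partner of the hepatocyte, had 115 and 37 counts at 0 µM (499.5 and 679 nuclear CPM), 1 and 2 counts at 10 µM (40.8 and 175 nuclear CPM), and 1428 and 813 counts at 100 µM (692 and 628 nuclear CPM). Both 10 µM libraries lay below all others, and the 100 µM libraries overlapped the controls, the second lying between them and the first just above both. Pooled levels, here and below, divide the summed counts of a dose by its summed nuclear counts and so weight libraries by depth. The pooled level of KRT8 at 10 µM was 0.156 of the control level (exact 95% counting interval 0.0319 to 0.466).

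KRT18, the type I partner, had 459 and 314 counts at 0 µM (1994 and 5761 nuclear CPM), 1 and 1 count at 10 µM (40.8 and 87.7 nuclear CPM), and 2386 and 1086 counts at 100 µM (1156 and 839 nuclear CPM). The 3 doses did not overlap, with 100 µM between the other doses. The pooled level at 10 µM was 0.0205 of the control level (0.00248 to 0.0744). KRT19, the biliary and carcinoma keratin, had 407 and 315 counts at 0 µM (1768 and 5780 nuclear CPM), 0 and 1 count at 10 µM, and 3478 and 2728 counts at 100 µM (1685 and 2108 nuclear CPM). The 100 µM libraries overlapped the controls, and both 10 µM libraries were lower. Its pooled level at 10 µM was 0.0110 of the control level (0.000278 to 0.0614), the smallest ratio among the 8 genes with a count at that dose.

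Among the scaffold genes, AHNAK had 407 and 112 counts at 0 µM (1768 and 2055 nuclear CPM), no count in either 10 µM library, and 2226 and 1027 counts at 100 µM (1078 and 794 nuclear CPM). It was the only 1 of the 9 without a count at 10 µM, where the control shares would have given 43.3 and 50.4 counts in the first library and 20.2 and 23.4 in the second. With 3 counts over the pooled nuclear counts of the 10 µM group as the floor, AHNAK was at least 21.8-fold lower at 10 µM than in the controls. AKAP12, the kinase anchor, had 2076 and 235 counts at 0 µM (9018 and 4312 nuclear CPM), 3 and 2 counts at 10 µM (122 and 175 nuclear CPM), and 3679 and 2053 counts at 100 µM (1782 and 1587 nuclear CPM). It had the highest mean nuclear CPM of the 9 genes in the controls, and neither treated dose overlapped them. Its pooled level at 10 µM was 0.0172 of the control level (0.00556 to 0.0401).

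FN1, the secreted matrix glycoprotein, had 733 and 112 counts at 0 µM (3184 and 2055 nuclear CPM), 3 and 1 count at 10 µM (122 and 87.7 nuclear CPM), and 11892 and 7639 counts at 100 µM (5760 and 5904 nuclear CPM). The 3 doses did not overlap, and 100 µM was the highest. The pooled level at 10 µM was 0.0375 of the control level (0.0102 to 0.0964).

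TMSB10, the monomer-binding peptide, had 55 and 158 counts at 0 µM (239 and 2899 nuclear CPM), 1 and 1 count at 10 µM (40.8 and 87.7 nuclear CPM), and 7818 and 4882 counts at 100 µM (3787 and 3773 nuclear CPM). Its controls stood far apart while its 100 µM libraries were nearly equal. The pooled level at 10 µM was 0.0744 of the control level (0.00896 to 0.272). ACTB, the beta actin, had 652 and 33 counts at 0 µM (2832 and 605 nuclear CPM), 2 and 22 counts at 10 µM (81.6 and 1929 nuclear CPM), and 2020 and 861 counts at 100 µM (978 and 665 nuclear CPM). The second 10 µM library lay between the controls and above both 100 µM libraries, so ACTB is the only 1 of the 9 genes for which every pair of doses overlapped. ACTG1, the gamma actin, had 351 and 20 counts at 0 µM (1525 and 367 nuclear CPM), 2 and 5 counts at 10 µM (81.6 and 438 nuclear CPM), and 5483 and 3599 counts at 100 µM (2656 and 2781 nuclear CPM). The 10 µM libraries overlapped the controls on this scale, and both 100 µM libraries were above all others. Pooled levels at 10 µM were 0.278 of the control level for ACTB (0.177 to 0.417) and 0.150 for ACTG1 (0.0597 to 0.311), with 22 of the 24 ACTB counts in 1 library. With equal weight for each library the means lay closer together, at 1005 ± 1306 nuclear CPM at 10 µM and 1719 ± 1575 at 0 µM for ACTB, and 260.0 ± 252 and 946 ± 819 for ACTG1 (SD, n = 2 each). For TMSB10 they lay farther apart than the pooled levels, at 64.2 ± 33.1 at 10 µM and 1569 ± 1881 at 0 µM.

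Because nuclear CPM does not allow for gene length, levels were compared between genes per kilobase of exon. In the controls the order of mean nuclear CPM per kilobase was TMSB10 (3163), KRT19 (1615), KRT18 (1205), AKAP12 (762), ACTB (528), ACTG1 (318), FN1 (151), AHNAK (98.2) and KRT8 (85.6). The first 6 changed places between the control libraries, and FN1, AHNAK and KRT8 took the last 3 places in both. At 100 µM the order was TMSB10 (7621), ACTG1 (914), KRT19 (812), FN1 (337), KRT18 (310), ACTB (252), AKAP12 (193), KRT8 (95.9) and AHNAK (48.1). Only FN1 and KRT18 changed places between the 100 µM libraries. AHNAK and KRT8 were the lowest per kilobase at both doses. The divisor was all annotated exon bases, 19465 for AHNAK, the longest, and 6881 for KRT8. The longest-coding KRT8 transcript has 1687 bases, so the rank of KRT8 depends on which length is used.

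At 10 µM against control, the comparison on which the genes were chosen, 5 of the 9 (AHNAK, AKAP12, FN1, KRT18 and KRT19) passed as lower in edgeR's quasi-likelihood fit, against 0.377% of the 3180 genes tested. On nuclear CPM both 10 µM libraries lay below both controls for 7 of the 9, against 32% of the nuclear genes tested. The median log2 fold change was -5.82 over the 9 genes and -3.17 over all genes tested. These values were in view when the genes were chosen, so nothing is read from them. Without the second control all 9 passed, and without the first 10 µM library 0 did. Without the second 10 µM library 2 of the 9 passed, and without either 100 µM library 2 did.

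The comparison of 100 µM with control was not the one used to choose the genes, although it shares the control libraries with it, and here the 9 genes went apart. FN1, TMSB10 and ACTG1 were higher in both 100 µM libraries than in both controls, KRT18, AHNAK and AKAP12 were lower in both, and KRT8, KRT19 and ACTB overlapped. Across the nuclear genes tested 48.3% were higher without overlap and 9.57% lower, so 3 of 9 in the higher direction lay under the background share and 3 of 9 in the lower direction above it. The genes were chosen with low levels against these same controls in view, so counts and medians in the lower direction are not independent of the choice. In edgeR 0% of the 3180 genes passed, while 575 genes (18.1%) had an unadjusted p under 0.05, and DESeq2's Wald test passed 244 genes. Among the 9, AKAP12 and KRT18 had an unadjusted p under 0.05. The median log2 fold change was -1.38 over the 9 genes and 0.36 over all genes tested, a median that other scalings moved to between -0.05 and 1.01. Without the first control the median of the 9 genes turned to 0.32, where all genes tested had 2.04, and without the second control it was -0.51, where all had 1.39.

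The scaffold gene AKAP12 had the smallest p of the 9, with a log2 fold change of -2.65 ± 0.82 (SE, n = 2 each, edgeR adjusted p = 0.204). Without the first control, its highest library, the value was -0.996 (adjusted p = 0.244), and without the second control it was -3.03 (adjusted p = 0.000499). DESeq2's Wald test on the same genes gave -3.11 (adjusted p = 0.016). KRT18 followed at -2.36 ± 0.93 (edgeR adjusted p = 0.231), and the DESeq2 value was -2.84 (adjusted p = 0.0105). Leaving out either control kept KRT18 negative, at -2.16 and -1.61. AHNAK was at -1.57 ± 1.05 (edgeR adjusted p = 0.438) and KRT19 at -1.38 ± 0.99 (edgeR adjusted p = 0.467). KRT8, the partner of KRT18, was at -0.35 ± 1.22 (edgeR adjusted p = 0.897), with a sign that turned under several settings.

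The values of the other 4 genes depended on which control entered the fit. TMSB10 was at 1.00 ± 1.07 (SE, n = 2 each, edgeR adjusted p = 0.635), but at 3.37 (adjusted p = 0.0112) without the second control and at 0.74 without the first. FN1 was at 0.53 ± 0.80 (edgeR adjusted p = 0.748), with 1.86 (adjusted p = 0.0767) without the first control and 0.26 without the second. ACTG1 was at 0.78 ± 1.12 (edgeR adjusted p = 0.733), with 3.24 (adjusted p = 0.0583) without the first control and 0.22 without the second. ACTB, the other actin, was at -1.82 ± 1.34 (edgeR adjusted p = 0.479), and its sign turned to 0.81 without the first control. With all libraries, none of the 9 passed the adjusted threshold of 0.05 in edgeR, while AKAP12 and KRT18 passed it in DESeq2's Wald test.

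**Figure D2:**
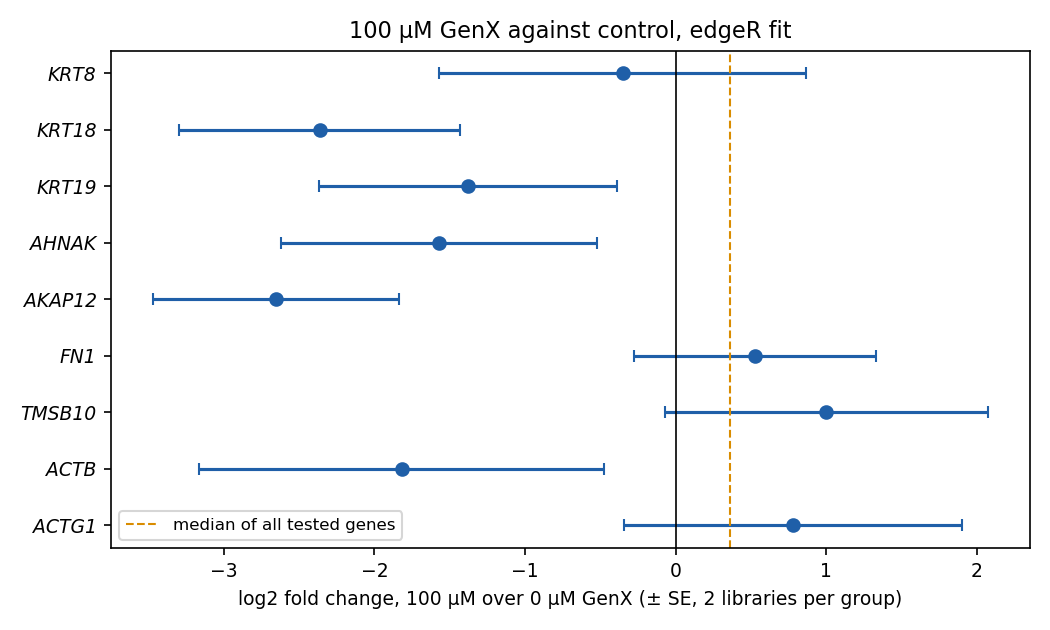
Fitted log2 fold change of each gene at 100 µM GenX against control, with bars of ± 1 SE (n = 2 libraries each). The dashed line is the median of all 3180 genes tested, 0.36. The 3 higher genes (FN1, TMSB10, ACTG1) lie above it and the other 6 lie below 0, with AKAP12 and KRT18 farthest.

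At 100 µM against 10 µM, which shares the 10 µM libraries with the comparison that chose the genes, 5 of the 9 passed as higher (AHNAK, AKAP12, FN1, KRT19 and TMSB10), against 0.755% of the genes tested. On nuclear CPM both 100 µM libraries lay above both 10 µM libraries for 8 of the 9, against 63.8% of nuclear genes, and ACTB was the exception. The median log2 fold change was 4.74 over the 9 genes and 3.52 over all genes tested. The low 10 µM counts were in view when the genes were chosen, so nothing is read from these values. Pooled levels at 100 µM were 67.9 times those at 10 µM for TMSB10 (exact 95% counting interval 18.8 to 561), 66.4 times for KRT19 (11.9 to 2621), 52.2 times for FN1 (20.4 to 192) and 1.28 times for ACTB (0.861 to 2.01). With equal weight for each library the order of the ACTB levels turned, with means of 822 ± 221 nuclear CPM at 100 µM and 1005 ± 1306 at 10 µM (SD, n = 2 each). The KRT19 means were 1896 ± 299.5 at 100 µM and 43.8 ± 62.0 at 10 µM, a smaller ratio than the pooled one. AHNAK was at least 11.6-fold higher at 100 µM, with 3 counts over the pooled 10 µM nuclear counts as the floor. The number that passed was 8 without either control, and 1 without the first 10 µM library or without either 100 µM library.

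The makeup of the 9-gene counts at 100 µM did not overlap that of the controls for AKAP12, FN1, TMSB10, KRT18, AHNAK, ACTG1 and KRT8. On nuclear CPM, 48.3% of the nuclear genes tested were higher at 100 µM without overlap and 9.57% lower, so such separation was common. The shares sum to a fixed whole, so a change in 1 gene moves the others. KRT8 did not separate on nuclear CPM. AKAP12 supplied 8.71% ± 0.557 of these counts at 100 µM, against 28.5% ± 15.5 at 0 µM (SD, n = 2 each). FN1 supplied 30.2% ± 1.07 at 100 µM, against 11.2% ± 3.94 at 0 µM, and TMSB10 19.6% ± 0.303 against 6.44% ± 7.62. The 100 µM libraries were alike in makeup, while the controls differed from each other most in AKAP12, KRT18 and KRT19. At 10 µM, 22 of the 35 counts in the second library were ACTB, so a makeup there rests on very few counts.

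**Figure D3:**
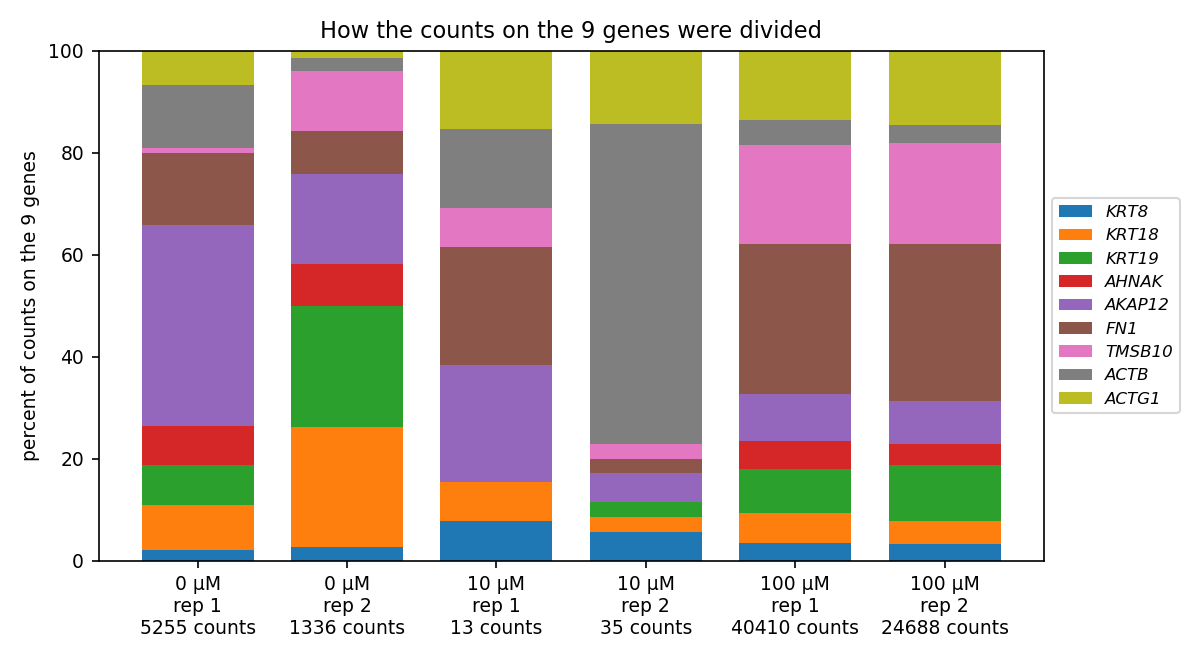
Percent of the counts on the 9 genes that each gene supplied, stacked, in each library (0, 10 and 100 µM GenX, 2 libraries each, with the number of counts under each bar). AKAP12 is the largest block in the first control, FN1 and TMSB10 are the largest at 100 µM, and the 10 µM bars hold 13 and 35 counts.

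Ratios within a family do not depend on the library total. ACTB held 26.9% (25.9 to 27.9) and 19.3% (18.2 to 20.5) of the actin counts at 100 µM, against 65.0% (62.0 to 68.0) and 62.3% (47.9 to 75.2) at 0 µM. At 10 µM ACTB had 2 of the 4 actin counts in the first library and 22 counts beside 5 of ACTG1 in the second, 81.5% (61.9 to 93.7). The 100 µM and control libraries did not overlap, with gamma actin the more counted at 100 µM and beta actin in the controls. KRT8 held 37.4% (35.9 to 39.0) and 42.8% (40.6 to 45.1) of the KRT8 and KRT18 counts at 100 µM, against 20.0% (16.8 to 23.5) and 10.5% (7.53 to 14.2) at 0 µM, again without overlap. The ratio of KRT19 to KRT18 counts was 1.46 and 2.51 at 100 µM and 0.887 and 1.00 at 0 µM. An exact permutation test of 2 libraries against 2 cannot go below a two-sided p of 0.333, so these ratios carry no test, and a ratio shows unequal change without showing which gene changed.

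**Figure D4:**
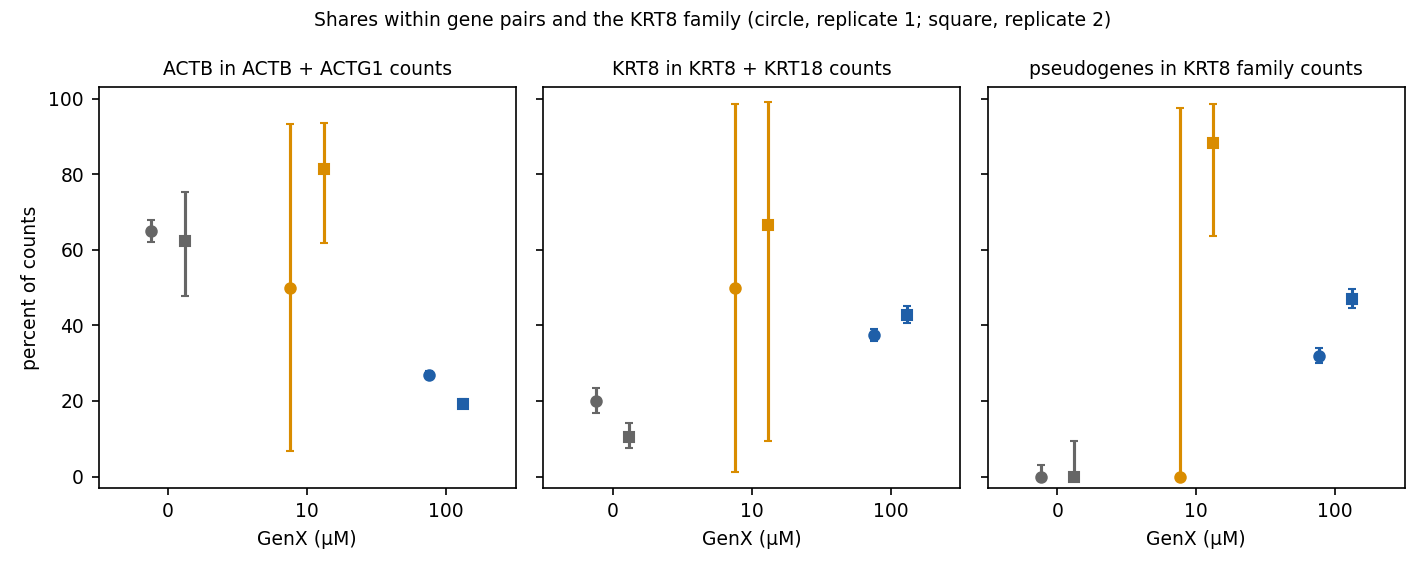
Percent of counts by GenX dose in µM, with exact 95% binomial intervals, circles for replicate 1 and squares for replicate 2. From left to right the panels show ACTB in the 2 actins, KRT8 in KRT8 and KRT18, and pseudogene rows in the KRT8 family. ACTB is 19.3% to 26.9% at 100 µM, against 62.3% to 65.0% at 0 µM, and KRT8 pseudogene rows are 31.9% and 47.1% at 100 µM, against 0% at 0 µM. In the second 10 µM library they are 88.2%, on 15 counts beside 2 of KRT8.

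The keratin partners have many processed copies, and at 100 µM some of these held counts. The tables listed 51 KRT8 pseudogene rows, 10 of them with a count in any library. They held 670 of the KRT8 family counts (31.9%, 29.9 to 34.0) and 724 (47.1%, 44.6 to 49.6) at 100 µM, against 0 beside 115 and 0 beside 37 KRT8 counts at 0 µM. The exact 95% upper limits of those zero shares are 3.16% and 9.49%. KRT8P3 alone, which is 97.1% identical to the KRT8 coding sequence over 1449 bases, had 662 and 679 counts at 100 µM and 0 in the other 4 libraries. With its copies added, the KRT8 family stood at 1016 and 1188 nuclear CPM at 100 µM, against 499.5 and 679 at 0 µM, so the family levels did not overlap although those of KRT8 alone did. In the second 10 µM library 15 of the 17 family counts lay on copies, 12 of them on KRT8P25, which put the family at 1490 nuclear CPM there, above every other library. KRT8P3 lies within the span of ASPH on the opposite strand without shared exon bases, and ASPH had 2231 and 1251 counts at 100 µM, 0 and 0 at 10 µM, and 112 and 38 at 0 µM. The part of ASPH transcripts, of misplaced KRT8 reads or of KRT8P3 RNA in these counts was not tested.

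The KRT18 copies, 67 rows with a count on 23, held 7.01% and 5.15% of the KRT18 family counts at 100 µM, against 1.08% and 0.633% at 0 µM. At 10 µM they held 3 of 4 and 2 of 3 family counts, which put the family at 163 and 263 nuclear CPM, against 2016 and 5798 at 0 µM. KRT18P61 had 91 and 35 counts at 100 µM, against 0 and 1 at 0 µM. Copies of ACTG1 held 0.0911% and 0.0278% of its family counts at 100 µM, against 1.96% (7 counts) and 35.5% (11 counts) at 0 µM. KRT19 had 5 such rows and none with a count, the copies of ACTB and TMSB10 held at most 4 counts in a library, and AHNAK, AKAP12 and FN1 had no such row.

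RefSeq promoter windows of 250 bases before to 50 after the start (GRCh38.p14) were at hand for 6 of the 9 genes, in 8 windows. The CArG box, the element read by serum response factor in many cytoskeletal genes, was searched for on both strands and occurred in 2 of the 8 windows, against 1.29% of all 35116 windows. Its first base lay at position -94 from the start in ACTG1 and -81 in AKAP12, and these windows are shown with the box in capitals because the 2 genes lay on opposite sides of the controls at 100 µM without overlap. They lie at chr17:81512750-81513049 on the minus strand and chr6:151239717-151240016 on the plus strand:
ACTG1: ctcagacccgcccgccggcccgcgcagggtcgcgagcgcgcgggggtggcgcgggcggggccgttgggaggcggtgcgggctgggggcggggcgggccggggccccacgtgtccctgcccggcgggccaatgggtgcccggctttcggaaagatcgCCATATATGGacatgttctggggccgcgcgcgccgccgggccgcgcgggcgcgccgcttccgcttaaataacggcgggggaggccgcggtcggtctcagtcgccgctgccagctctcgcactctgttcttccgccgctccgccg
AKAP12: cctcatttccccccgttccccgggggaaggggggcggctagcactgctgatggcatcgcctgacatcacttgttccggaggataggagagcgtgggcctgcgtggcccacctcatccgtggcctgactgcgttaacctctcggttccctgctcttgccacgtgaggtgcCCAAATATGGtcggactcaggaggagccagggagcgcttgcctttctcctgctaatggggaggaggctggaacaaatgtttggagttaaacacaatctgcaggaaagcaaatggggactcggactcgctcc
GGGCGG, the GC box, occurred on either strand in 7 of the 8 windows, against 45.0% of all windows, and TATAAA in none, against 11.5%. Only these exact letters were searched for, so variants of either element were not counted. No GC box lies within a CArG box. The other AKAP12 windows, at chr6:151325281-151325580 and chr6:151341456-151341755, held no CArG box. A match describes letters in a window, not binding.

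Across the 6 libraries, 152 of 2157 protein-coding genes with a mean of at least 100 nuclear CPM correlated above 0.9 with the summed 9 genes, on log2 of nuclear CPM plus 10. Among the 5 most alike were TIMP1, an inhibitor of matrix metalloproteinases (r = 0.999), ITGB1, the beta 1 integrin chain (r = 0.994), RPS19, a ribosomal protein (r = 0.989), and SEMA3B, a secreted semaphorin (r = 0.988). TIMP1 stood at 1516 and 1651 nuclear CPM at 0 µM, 0 and 87.7 at 10 µM, and 1024 and 1204 at 100 µM. The points are the same 6 libraries, with the low 10 µM libraries on 1 side, so the correlations describe this contrast.

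Genes of the same structures were listed by role. In edgeR's fit no tested gene of these 7 lists passed in any of the 3 comparisons. Of 40 actin monomer, branching and crosslinking genes 31 were tested, with a median log2 fold change of -2.27 at 10 µM against control, where all genes tested had -3.17. Their summed share of nuclear counts was 1.58% and 0.996% at 0 µM, 0.482% and 0.368% at 10 µM, and 1.01% and 1.02% at 100 µM. The 16 other keratins and intermediate filament genes, of which 8 were tested, had a median of -8.54 at 10 µM against control and 0.68 at 100 µM against control. In each 10 µM library only 3 of the 16 had a count, so the first median rests on very few counts. Their summed share of nuclear counts was 0.0678% and 0.119% at 0 µM, 0.0245% and 0.0438% at 10 µM, and 0.155% and 0.196% at 100 µM. LMNA, a nuclear lamina protein and the most counted of them, had 1001 and 965 counts at 100 µM, 1 and 0 at 10 µM, and 43 and 9 at 0 µM, and its log2 fold change at 100 µM against control was 1.22 ± 1.42 (SE, n = 2 each, edgeR adjusted p = 0.668).

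The keratin linkers and junction plaque genes, 10 of 17 tested, had a median of -2.75 at 10 µM against control and -1.66 at 100 µM against control, where all genes tested had -3.17 and 0.36. CTNNB1, the junction and signalling protein beta-catenin, had 1105 counts in the first control and 10 in the second, 3 and 4 at 10 µM, and 317 and 192 at 100 µM. CAPZA1, an actin-capping subunit, had 1736 and 2 counts at 0 µM, 0 and 0 at 10 µM, and 534 and 202 at 100 µM. Both genes were thus high in 1 control library only. The tubulin list (9 of 14 tested) had medians of -2.49 at 10 µM and 0.04 at 100 µM against control, and MAP1B, a microtubule-associated protein, was at -0.31 ± 1.59 at 100 µM against control (SE, n = 2 each, edgeR adjusted p = 0.937).

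The AHNAK partners (5 of 8 tested) had medians of -2.03 at 10 µM and 0.87 at 100 µM against control. S100A6 among them, a calcium-binding protein, was at 0.03 ± 1.30 at 100 µM against control (SE, n = 2 each, edgeR adjusted p = 0.996). Of 13 A-kinase anchors and protein kinase A subunits 4 were tested. None of the 13 had a count in the first 10 µM library, and 4 had one in the second. Their summed share of nuclear counts was 0.0699% and 0.0128% at 0 µM and 0% and 0.0438% at 10 µM, so these doses overlapped. AKAP13, another anchor, had 470 and 614 counts at 100 µM, 0 and 1 at 10 µM, and 38 and 0 at 0 µM. The fibronectin receptors and matrix genes, 15 of 24 tested, had medians of -5.47 at 10 µM and -0.24 at 100 µM against control. Their summed share of nuclear counts was 0.543% and 0.635% at 0 µM, 0.220% and 0.351% at 10 µM, and 0.598% and 0.663% at 100 µM. SDC4, a cell-surface heparan sulfate proteoglycan, had 2 and 1 counts at 10 µM, against 533 and 104 at 0 µM. Its log2 fold change was -5.87 ± 1.24 at 10 µM against control, a comparison in view when the lists were chosen. At 100 µM against control it was -1.22 ± 0.96 (SE, n = 2 each, edgeR adjusted p = 0.51).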

How the data were processed

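The values were raw counts of reads per gene, as deposited by the authors, in 1 table per library. FastQC, STAR, featureCounts and DESeq2 were used with GRCh38, per the submitters' processing notes, with versions not given in the sources used here. Symbols came from a separate list of gene names and, where it had none, from GENCODE v29, which matched 56898 of 57500 identifiers. The 9 genes, and the lists of related genes, were chosen with earlier results of these data known.

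All 6 libraries were fitted in 1 model with edgeR 4.0.16 (R 4.3.3): filterByExpr by group (3180 genes kept, all 9 among them), TMM scaling, robust quasi-likelihood tests, two-sided, Benjamini-Hochberg adjustment across the 3180 genes, threshold 0.05. Nuclear CPM divided counts by the counts on genes not on mtDNA. Shares and ratios carry exact 95% intervals. Named list genes were those that passed, otherwise the member with the highest mean CPM, and likeness used genes of at least 100 nuclear CPM, with 1 gene and 1 sequence not reported here. Replicates differed by more than sampling noise (chi-square per degree of freedom 39.4 at 0 µM, 12.9 at 10 µM and 35.2 at 100 µM). Alternatives were DESeq2 1.42.0 size factors and Wald test, library sizes alone, TMM without mtDNA genes, other filters, a replicate block, thinning and leaving out each library.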

Additional observations from a re-analysis of the deposited data

Results flagged for a closer look

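Rows of KRT8 pseudogenes, which lie outside the 9 genes, held 31.9% and 47.1% of the KRT8 family counts in the first and second 100 µM libraries, against 0% in both control libraries, where the exact 95% upper limits beside 115 and 37 KRT8 counts are 3.16% and 9.49%. What drew attention to them is a signal in rows that the comparisons above do not use, above the level in the controls. Nearly all of it at 100 µM lay on KRT8P3, with 662 and 679 counts. The share was not high at 100 µM alone. In the second 10 µM library copies held 15 counts beside 2 of KRT8 (88.2%), 12 of them on KRT8P25, and in the first 0 beside 1. Whether the KRT8P3 counts are reads of KRT8, of ASPH or of the copy itself was not tested.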

How the results depend on the processing

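Over all refits of the log2 fold changes of the 9 genes, 0 values turned sign at 10 µM against control, 8 at 100 µM against control and 3 at 100 µM against 10 µM, and the cause was not tested. At 100 µM against control KRT8 went to 0.23 with library sizes alone, 0.33 without a filter, 0.71 with a mean of at least 5 CPM, 0.32 without the first control, 0.0084 without the second 10 µM library, and 0.10 and 0.35 without the first or second 100 µM library, and ACTB to 0.81 without the first control (with a library left out, -0.21 to 0.35 for KRT8 and -2.40 to 0.81 for ACTB). A lone library left in a group was assumed to vary like the other groups. At 100 µM against 10 µM ACTB went to -0.14 with DESeq2 size factors, -0.14 in DESeq2's Wald test and -1.24 after thinning to 29350 counts. Thinning and the DESeq2 test with no filter were chosen after seeing the data.

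At 10 µM against control 19 genes passed, 7 higher and 12 lower (8 and 7 under DESeq2 size factors, but 0 and 7 when scaled by library sizes alone or without mtDNA genes). The number was 7 with library sizes alone, 7 without mtDNA genes, 554 in DESeq2's Wald test, 7 without a filter, 91 at 5 CPM, 206 with only the 4 libraries compared, 82 thinned, and 4 to 863 with a library left out. Of the 9 genes 5 passed, against 1 with DESeq2 size factors, library sizes alone or without mtDNA genes, 0 without a filter in edgeR or DESeq2, and 0 to 9 with a library left out. At 100 µM against control the 0 genes became 4 with DESeq2 size factors, 244 in DESeq2's Wald test, 11 without its filter, and 0 to 215 with a library left out, and 0 of the 9 became 2 in DESeq2's Wald test and 0 to 2 with a library left out. At 100 µM against 10 µM 91 genes passed, 24 higher and 67 lower (6 and 73 under DESeq2 size factors, but 68 and 91 when scaled by library sizes alone and 9 and 33 without mtDNA genes), against 159 with library sizes alone, 42 without mtDNA genes, 383 in DESeq2's Wald test, 925 without its filter, 3 without a filter in edgeR, 290 at 5 CPM, 269 with only the 4 libraries, and 16 to 1278 with a library left out. Of the 9 genes 5 passed, against 1 with DESeq2 size factors, without mtDNA genes or thinned, 0 without a filter in edgeR or DESeq2, and 1 to 8 with a library left out.

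A replicate block gave 73, 22 and 137 genes in the 3 comparisons. Deviations of same-numbered libraries correlated at 0.00415, 0.00293 and -0.0235. Libraries of the same dose correlated at only 0.352 at 0 µM and 0.351 at 10 µM on log2 CPM. Noise of that size could hide a shared effect of replicate number, so whether the numbers pair the samples stays unknown.

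The share of the 9 genes was 1.87% at 100 µM over all gene counts, 2.00% without MALAT1 and NEAT1 and 1.98% with pseudogene rows, against 1.93%, and 2.19% and 2.64% at 0 µM in the first and second of these settings, against 2.37%. At 10 µM it was 0.0745% over all gene counts, 0.180% without MALAT1 and NEAT1 and 0.267% with pseudogene rows, against 0.180%. Depth limits the 10 µM libraries, where 1 count is 40.8 or 87.7 nuclear CPM.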
